A study of Mus musculus with 4 samples.

Results

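The genes described here are 9 members of the transforming growth factor beta (TGF-beta) pathway, chosen by name and by role, which are Tgfb1, Tgfb2, Tgfb3 and Inhba (ligands), Ltbp1 (latency), Tgfbr1, Tgfbr2 and Tgfbr3 (receptors) and Smad7 (inhibitor and target). All 9 were found by gene identifier among the 55421 genes of the count files, and all 9 passed the expression filter that left 17144 genes for testing. Their RNA was measured in cultures of prefrontal cortex (PFC) from wild-type C57BL/6 mice at postnatal day 0. The meninges and vessels had been peeled off, the tissue was dissociated with papain, and the cells were kept for 10 days in neurobasal medium with B27, GlutaMAX and antibiotics. A group of 2 libraries came from cultures that received FGF2 at 5 ng/mL, and a group of 2 libraries came from cultures in the same medium with no FGF2. The comparison asks how FGF2, a growth factor often added to such cultures, alters their transcriptome. The study's methods give 2 biological replicates for human cultures of 2 ages and 2 technical replicates for others, without naming the mouse cultures. The labels do not say what the numbers mark, so n counts libraries and the p-values may measure technical spread only.

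TGF-beta ligands are secreted as latent complexes, in which the ligand stays bound to its own propeptide and, through it, to a latent TGF-beta binding protein that anchors the complex in the matrix. Integrins, proteases or thrombospondin release the ligand, which binds the type II receptor and brings in the type I receptor, and the type I receptor phosphorylates the transcription factors SMAD2 and SMAD3. These enter the nucleus with SMAD4 and switch on target genes, among them Smad7, whose product shuts the type I receptor down. In the cortex, TGF-beta signalling is known for keeping microglia in their resting state and for its part in astrocyte and synapse development.

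With FGF2, Tgfb1, Ltbp1 and Tgfbr1 had higher levels and Inhba had a lower level (edgeR quasi-likelihood test, adjusted p below 0.05 over all tested genes). The other 5 members, which are Tgfb2, Tgfb3, Tgfbr2, Tgfbr3 and Smad7, did not pass. The 4 called members are 44.4% of the 9, and among all tested genes 40.5% passed, with 20.7% higher and 19.9% lower, so the share of members called was near that of the background. The 2 groups of libraries did not overlap in level for 6 of the 9 members, where 67.1% of all tested genes did not overlap. The median log2 fold change was 0.18 over the members and -0.00082 over all tested genes. Levels below are counts-per-million values (CPM), with library totals adjusted by TMM, fold changes are FGF2 over no FGF2, and intervals cover 95%.

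**Figure D1:**
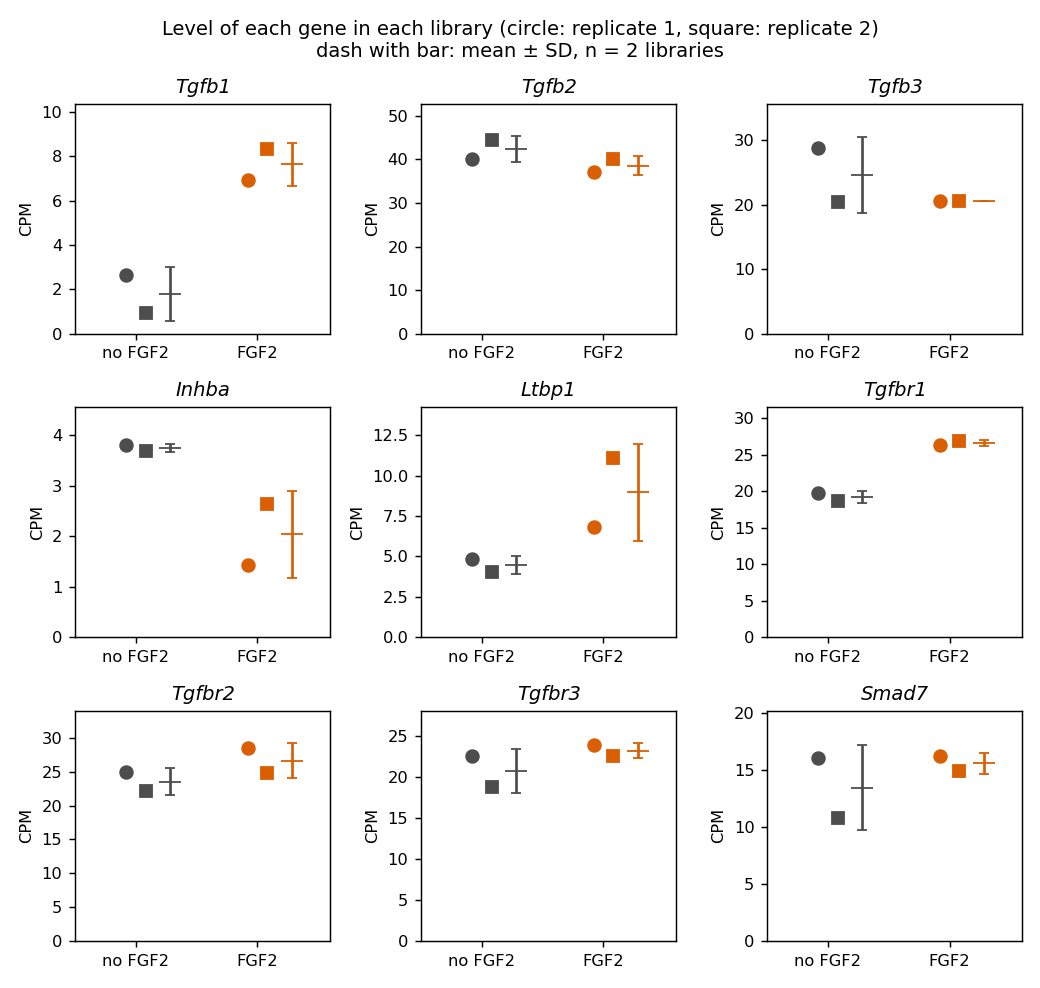
Level of each of the 9 genes in CPM (vertical axis, from 0) in the cultures without FGF2 (grey) and with FGF2 (orange), where each point is a library and the dash with its bar is the mean ± SD of 2 libraries. Tgfb1, Ltbp1 and Tgfbr1 sit higher in both libraries with FGF2, Inhba sits lower, and Tgfb3, Tgfbr2 and Smad7 overlap between the groups.

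Sequencing depth was similar in the 4 libraries, with 9166432 to 10799886 counts on genes, and a count of 3 was 0.277 to 0.331 CPM. Between 43.2% and 45.9% of the tallied read pairs were assigned to no gene when counted, wherever in the genome they lay. Marker genes of cell types also differed between the groups, where 20.7% of all tested genes were higher and 19.9% lower with FGF2. All 6 neuronal markers had lower levels with FGF2, and their summed level was 2669 to 2706 CPM with FGF2 and 3688 to 3712 without. Of the 6 tested astrocyte markers 5 were higher, with a sum of 11386 to 11503 CPM against 6743 to 6773, and all 6 tested oligodendrocyte lineage markers were higher, with a sum of 1433 to 1441 CPM against 415 to 424. In bulk RNA, more cells of a type and more RNA of a gene per cell cannot be told apart.

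Tgfb1 (ENSMUSG00000002603) encodes TGF-beta 1, the ligand that microglia and macrophages are best known for in the brain, and it had the largest fold change of the 9. It had 63 and 82 counts in replicates 1 and 2 with FGF2 and 28 and 10 counts without FGF2, which is 6.94 and 8.34 CPM against 2.67 and 0.924 CPM. The libraries with FGF2 were thus both above those without, and the libraries without FGF2 differed widely from each other. The mean was 7.64 ± 0.986 CPM with FGF2 and 1.79 ± 1.23 CPM without (SD, n = 2). The fold change was 4.27, with an interval of 2.80 to 6.50 (log2 2.09, standard error 0.31, edgeR adjusted p = 1.4e-10). The call held with each library left out, but the size moved, to 8.16-fold without replicate 1 and 2.86-fold without replicate 2 of the cultures without FGF2.

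As with the astrocyte and oligodendrocyte lineage markers, some microglial markers were higher with FGF2. Of 7 microglial markers 3 passed the expression filter, and among all tested genes 20.7% were higher. The 2 higher markers were Csf1r and Cx3cr1, with log2 fold changes of 1.43 and 1.19, while C1qa did not pass. The summed level of all 7 was 11.9 to 14.8 CPM with FGF2 and 5.81 to 6.10 CPM without. P2ry12, Tmem119, Aif1 and Itgam were not tested, with at most 9 counts in a library. The part of microglia in the level of Tgfb1 was not tested.

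Tgfb2 (ENSMUSG00000039239) and Tgfb3 (ENSMUSG00000021253, on chromosome 12 at 86056745-86079041 on the minus strand) encode the other two TGF-beta ligands, which neurons and astrocytes make. Tgfb2 had 336 and 394 counts in the FGF2 libraries against 422 and 482 in the others, or 37.0 and 40.1 CPM against 40.2 and 44.5 CPM. Both libraries with FGF2 were just below those without, and the fold change of 0.911 had an interval of 0.797 to 1.04 (edgeR adjusted p = 0.29). Tgfb3 had 187 and 203 counts in the FGF2 libraries against 302 and 222 in the others, or 20.6 and 20.6 CPM against 28.7 and 20.5 CPM. The library from replicate 1 without FGF2 stood above the others, which were alike. The fold change of Tgfb3 was 0.839, with an interval of 0.705 to 0.998 before adjustment over genes (edgeR adjusted p = 0.10). The value rests on that library, since the log2 fold change was 0.0042 without it (edgeR adjusted p = 0.99), but -0.48 without replicate 2 of the same group (edgeR adjusted p = 0.0093).

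Divided by exonic length, Tgfb2 and Tgfb3 had the highest levels of the 4 ligands among the members in both groups. Without FGF2 their levels were 7.31 ± 0.532 and 7.28 ± 1.72 CPM per kb (SD, n = 2), which do not differ beyond their spread. Inhba followed with 0.587 ± 0.012 and Tgfb1 with 0.356 ± 0.244 CPM per kb, which also lie within their spread. The likeness of Tgfb2 and Tgfb3 rests on exonic lengths of 5791 and 3383 bases. Their coding lengths are 1326 and 1236 bases, and their CPM without FGF2 were 42.3 ± 3.08 and 24.6 ± 5.83 (SD, n = 2). How far the ligands differ in level thus depends on the length used. With FGF2 the levels were 6.66 ± 0.370 CPM per kb for Tgfb2, 6.10 ± 0.0066 for Tgfb3, 1.52 ± 0.196 for Tgfb1 and 0.319 ± 0.134 for Inhba, so Tgfb1 was then above Inhba by more than the spread. Of the summed level per kb of Tgfb1, Tgfb2 and Tgfb3, the share of Tgfb1 was 9.93% and 11.3% in the libraries with FGF2 and 3.31% and 1.31% in those without. This is a difference of 8.29 percentage points, with no overlap between the groups (exact permutation test, two-sided, p = 0.333, which is the minimum for groups of 2 and 2). The share of Tgfb2 was 46.6% ± 0.723 with FGF2 and 49.3% ± 8.29 without, and that of Tgfb3 was 42.8% ± 1.67 and 48.4% ± 6.88 (SD, n = 2), differences within the spread of the libraries without FGF2 (exact permutation test, two-sided, p = 1 and p = 0.667). The 3 ligands summed to 14.3 ± 0.572 CPM per kb with FGF2 and 14.9 ± 1.43 without (SD, n = 2), a difference within the spread (exact permutation test, two-sided, p = 0.667).

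**Figure D2:**
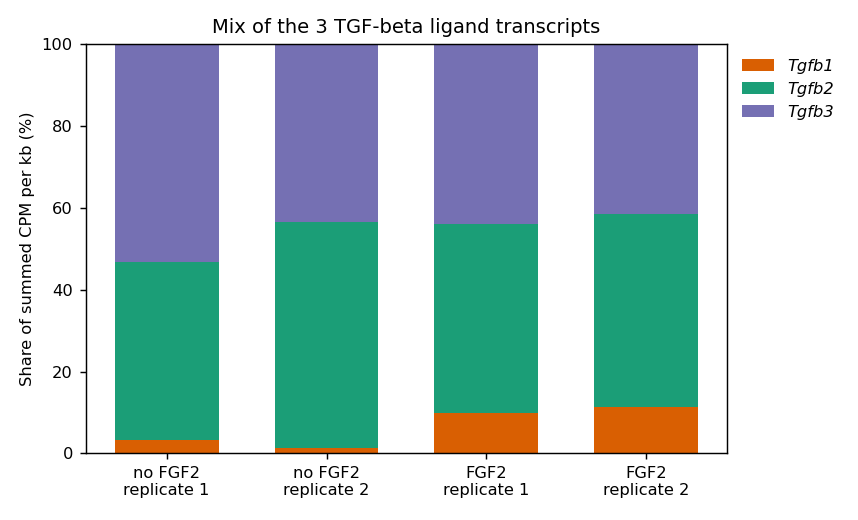
Share of Tgfb1, Tgfb2 and Tgfb3 in their summed CPM per kb of exon (vertical axis, percent), with a bar for each library. The Tgfb1 segment is 9.93% and 11.3% with FGF2 and 3.31% and 1.31% without, and Tgfb2 and Tgfb3 make up the rest in each library.

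The promoters of Tgfb1 and Tgfb2 are shown because Tgfb1 was the ligand that rose and Tgfb2 an abundant one that did not pass. They are the 250 bases before the transcription start in RefSeq (mm10), read in the direction of the gene, and promoters of 6 of the 9 members were searched. The motif search ran over a window with a further 50 bases from the start. Capitals mark the GC box GGGCGG, the TATA box TATAAA, the AP-1 site TGACTCA, the cyclic AMP response element (CRE) TGACGTCA and its core CGTCA, searched on both strands, and positions are counted from 0 at the start. Tgfb1 lies on chromosome 7 at 25687002-25705077 on the plus strand and Tgfb2 on chromosome 1 at 186622792-186705989 on the minus strand, and both are protein-coding. An antisense gene, Gm29491, overlaps 124 bases of Tgfb2 exons and had 1 to 7 counts in a library. On the strand opposite to Tgfb3, Gm37804 and Gm48008 overlap 163 and 257 bases of its exons and had at most 2 counts in a library.
Tgfb1, chr7:25686752-25687001, plus strand: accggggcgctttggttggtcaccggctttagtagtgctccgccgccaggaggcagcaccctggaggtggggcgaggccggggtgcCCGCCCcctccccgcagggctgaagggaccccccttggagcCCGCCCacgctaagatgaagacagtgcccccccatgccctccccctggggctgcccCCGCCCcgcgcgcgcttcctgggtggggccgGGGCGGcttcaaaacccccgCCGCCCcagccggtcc
Tgfb2, chr1:186705990-186706239, minus strand: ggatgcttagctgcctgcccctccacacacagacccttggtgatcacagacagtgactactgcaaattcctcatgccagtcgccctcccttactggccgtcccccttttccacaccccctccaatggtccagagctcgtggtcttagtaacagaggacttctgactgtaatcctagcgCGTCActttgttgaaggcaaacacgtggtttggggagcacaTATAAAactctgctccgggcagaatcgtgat

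The Tgfb1 window was 77.0% G and C, against a median of 52.7% over the 32851 promoters in the table, and it held 6 GC boxes from position -164 to position 11, the latter beyond the printed stretch, and no TATA box. The Tgfb2 window was 54.3% G and C, with a TATA box at position -31 and a CRE core at -72, and no GC box. Of all these promoters 35.7% held a GC box, 13.6% a TATA box and 20.8% the CRE core, where each full CRE also counts as a core. The AP-1 letters, found in 5.20% of all promoters, were in neither window. These matches describe the sequence and do not show that a factor binds there.

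Inhba (ENSMUSG00000041324) encodes the beta A subunit, which pairs to form activin A, a ligand that signals through activin receptors and the same SMADs and that neurons make in response to activity. It lies on chromosome 13 at 16011851-16031621 on the plus strand. It was low in every library, with 13 and 26 counts in the FGF2 libraries against 40 and 40 in the others. In CPM these were 1.43 and 2.64 against 3.81 and 3.69, so both libraries with FGF2 were lower, although they differed from each other by more than those without. The fold change was 0.550, with an interval of 0.334 to 0.905 (log2 -0.86, standard error 0.37, edgeR adjusted p = 0.047). The call did not hold under every setting, since the adjusted p-value was 0.23 with DESeq2, 0.054 with limma-voom and 0.070 with edgeR when no expression filter was used. It was also lost in 3 of the 4 edgeR fits that left out a library, and the log2 fold change was -0.51 when the first FGF2 replicate was left out (edgeR adjusted p = 0.35). The neuronal markers, lower for 6 of 6 genes with a median log2 fold change of -0.48, moved in the same direction, and their part in the level of Inhba was not tested.

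Of 9 other genes of ligands and antagonists, 5 were tested, with 2 higher and 1 lower. Across all tested genes, 20.7% were higher and 19.9% lower, and 5 genes are too few for a comparison of shares. Inhbb, the beta B subunit of activins, rose with FGF2 from 15.8 ± 0.269 to 24.4 ± 0.554 CPM (SD, n = 2; fold change 1.55, edgeR adjusted p = 2.1e-05), opposite to Inhba. Fst, which encodes the activin antagonist follistatin, rose from 3.33 ± 0.269 to 6.61 ± 2.02 CPM (SD, n = 2; fold change 1.99, edgeR adjusted p = 0.0015), a call that was lost with DESeq2 (adjusted p = 0.051) and when the second FGF2 replicate was left out (log2 fold change 0.63, edgeR adjusted p = 0.16). Gdf11, a ligand of the activin receptors, had a small decrease (log2 fold change -0.22, edgeR adjusted p = 0.031), which did not pass without replicate 2 of either group, at -0.096 for that with FGF2 and -0.15 for that without, nor with DESeq2 (adjusted p = 0.23) or with edgeR and no expression filter (adjusted p = 0.053). Its level per kb of exon, 11.9 ± 1.53 CPM with FGF2 and 13.9 ± 0.946 without (SD, n = 2), was above those of Tgfb2 and Tgfb3. Inha, the inhibin alpha subunit, was at 13.1 ± 0.451 against 16.2 ± 0.254 CPM (SD, n = 2; edgeR adjusted p = 0.11). Nodal, Mstn, Lefty1 and Lefty2 had at most 6 counts in a library.

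Ltbp1 (ENSMUSG00000001870) encodes a latent TGF-beta binding protein, which ties the latent ligand to the matrix. It lies on chromosome 17 at 75005568-75392512 on the plus strand. It had 62 and 109 counts in the FGF2 libraries against 51 and 44 in the others, which is 6.83 and 11.1 CPM against 4.85 and 4.06 CPM. Both libraries with FGF2 were higher, and replicate 2 was far above replicate 1. The mean was 8.96 ± 3.01 CPM with FGF2 and 4.46 ± 0.559 CPM without (SD, n = 2), a fold change of 2.02 with an interval of 1.46 to 2.78 (log2 1.01, standard error 0.24, edgeR adjusted p = 9.2e-05). When the second FGF2 replicate was left out, the log2 fold change was 0.61 and did not pass (edgeR adjusted p = 0.11). The RefSeq promoter at its upstream start is shown with the same capitals, since it holds the full CRE, as 1.79% of all promoters in the table do.
Ltbp1, chr17:75005279-75005528, plus strand: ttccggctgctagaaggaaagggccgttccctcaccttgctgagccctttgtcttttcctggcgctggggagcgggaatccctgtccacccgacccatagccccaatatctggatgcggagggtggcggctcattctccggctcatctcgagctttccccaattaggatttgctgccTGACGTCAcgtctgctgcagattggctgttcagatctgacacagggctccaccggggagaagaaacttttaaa

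In this window the CRE begins at position -73 and covers both matches to the CRE core, and no GC, TATA or AP-1 letters were found. Ltbp1 has a second start in RefSeq, at 75178781, whose window held none of these motifs, and counts per gene do not tell the transcripts from these starts apart.

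Of 13 other genes of latency and activation, 12 were tested, with 4 higher, 1 lower and a median log2 fold change of 0.05. The share called was 41.7%, near the 40.5% of all tested genes. Ltbp3, a further latent TGF-beta binding protein, had a level of 6.09 CPM per kb of exon without FGF2, where Ltbp1 had 0.417 CPM per kb, and it rose from 55.2 ± 4.68 to 127 ± 0.431 CPM (SD, n = 2), a fold change of 2.30 (edgeR adjusted p = 3.1e-62). Ltbp4, of the same family, had 7.79 ± 0.965 CPM per kb of exon without FGF2 (SD, n = 2). It overlapped between the groups and did not pass (fold change 0.938, edgeR adjusted p = 0.45). Itgb8 and Itgav encode the subunits of integrin alpha v beta 8, an activator of latent TGF-beta on astrocytes and microglia, and both rose. Itgb8 had 115 ± 2.79 CPM without and 214 ± 15.1 CPM with FGF2 (SD, n = 2; fold change 1.86, edgeR adjusted p = 3.6e-59), and Itgav had 113 ± 5.72 and 168 ± 11.6 CPM (SD, n = 2; fold change 1.49, edgeR adjusted p = 7.1e-22). Fbn1, the microfibril protein fibrillin 1 to which the binding proteins attach, rose 1.31-fold (edgeR adjusted p = 0.00012). Thbs1 went the other way. It encodes thrombospondin 1, an activator of latent TGF-beta, and it fell from 42.7 ± 0.109 to 29.4 ± 0.778 CPM (SD, n = 2; fold change 0.690, edgeR adjusted p = 1.9e-06). The astrocyte markers, 5 of 6 higher with a median log2 fold change of 0.59, moved in the same direction as Itgb8. So did the oligodendrocyte lineage markers, 6 of 6 higher with a median of 1.61, and 2 of the 3 tested microglial markers. The part of any of these cells was not tested.

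The anchors of latent TGF-beta on the cell surface, Nrros of microglia and Lrrc32, had few counts. Nrros had 27 and 20 counts in the FGF2 libraries against 17 and 15 in the others (fold change 1.66, interval 0.907 to 3.02, edgeR adjusted p = 0.19). Lrrc32 had 20 and 22 against 34 and 39 counts (log2 fold change -0.62, interval -1.35 to 0.11, edgeR adjusted p = 0.18). Ltbp2, which unlike its relatives does not bind latent TGF-beta, had 21 and 11 against 35 and 30 counts (log2 fold change -0.84, edgeR adjusted p = 0.094), and of the alternatives run it passed only when replicate 1 with FGF2 was left out (log2 fold change -1.44, edgeR adjusted p = 0.022). Itgb6, the subunit of the epithelial activating integrin, had at most 1 count in a library.

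Tgfbr1 (ENSMUSG00000007613) encodes the type I receptor kinase, lies on chromosome 4 at 47353222-47414931 on the plus strand, and was the only one of the 3 receptor members to pass. It had 239 and 264 counts in the FGF2 libraries against 208 and 202 in the others, or 26.3 and 26.8 CPM against 19.8 and 18.7 CPM. The replicates of each group lay close together and the groups did not overlap. The fold change was 1.38, with an interval of 1.16 to 1.65 (log2 0.47, standard error 0.13, edgeR adjusted p = 0.0010), and it stayed between 0.42 and 0.51 on the log2 scale with each library left out.

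Tgfbr2 (ENSMUSG00000032440, on chromosome 9 at 116084293-116175360 on the minus strand), the type II receptor that binds the ligand, had 258 and 244 counts in the FGF2 libraries against 262 and 240 in the others, or 28.4 and 24.8 CPM against 24.9 and 22.2 CPM. The groups overlapped, and the fold change of 1.13 had an interval of 0.956 to 1.33 (edgeR adjusted p = 0.26). Tgfbr3 (ENSMUSG00000029287, on chromosome 5 at 107106570-107289629 on the minus strand), the coreceptor betaglycan that presents TGF-beta 2 to the type II receptor, had 216 and 222 counts in the FGF2 libraries against 237 and 203 in the others, or 23.8 and 22.6 CPM against 22.6 and 18.8 CPM. Here the groups were just apart, and the fold change of 1.12 had an interval of 0.941 to 1.34 (edgeR adjusted p = 0.32). Gm43422, on the same strand, overlaps 297 bases of Tgfbr3 exons and had 3 to 22 counts in a library, and the files tally ambiguous reads apart from the genes. Whether Tgfbr1 differed from Tgfbr2 and Tgfbr3 in its response was not tested, and the 3 intervals overlap. Per kb of exon, the receptors were alike without FGF2, at 2.94 ± 0.123 CPM per kb for Tgfbr1, 2.88 ± 0.239 for Tgfbr2 and 3.16 ± 0.411 for Tgfbr3 (SD, n = 2). The coding lengths, 1509, 1776 and 2550 bases, stand in other ratios, so this likeness depends on the length used. With FGF2 the receptors were at 4.07 ± 0.054, 3.25 ± 0.313 and 3.54 ± 0.133 CPM per kb of exon (SD, n = 2), with Tgfbr1 then the highest. Their sum was 10.9 ± 0.392 CPM per kb with FGF2 and 8.98 ± 0.774 without (SD, n = 2), with no overlap between the groups (exact permutation test, two-sided, p = 0.333, the lowest value this design can give).

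**Figure D3:**
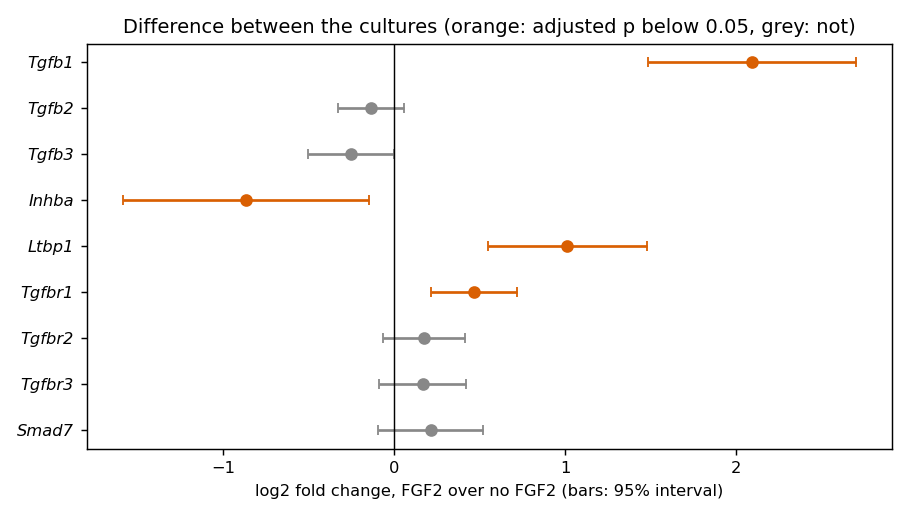
Log2 fold change of the 9 genes, FGF2 over no FGF2 (horizontal axis), with 95% intervals from the edgeR fit, in orange where the adjusted p-value is below 0.05 and in grey otherwise. Tgfb1 (2.09), Ltbp1 (1.01) and Tgfbr1 (0.47) lie to the right, Inhba (-0.86) to the left, and the 5 grey genes lie between -0.25 and 0.21.

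Of 8 other receptor genes 5 were tested, with none higher and 2 lower with FGF2. The share called was 40.0%, near the 40.5% of all tested genes. Acvr2a, a type II activin receptor, had 433 and 671 counts in the FGF2 libraries against 848 and 804 in the others (fold change 0.751, edgeR adjusted p = 1.4e-06), and its libraries with FGF2 lay far apart. It did not pass with DESeq2 (adjusted p = 0.25) or without replicate 1 with FGF2 (log2 fold change -0.19, edgeR adjusted p = 0.087). Bambi, a decoy receptor without a kinase that blocks TGF-beta signalling, had 50 and 69 counts in the FGF2 libraries against 106 and 99 in the others (fold change 0.654, edgeR adjusted p = 0.013). The call of Bambi was lost with DESeq2 (adjusted p = 0.13), without replicate 1 with FGF2 (log2 fold change -0.46) and without replicate 1 without FGF2 (-0.55). Acvr1b and Acvr2b, further activin receptors, did not pass, with log2 fold changes of 0.14 and 0.22 (edgeR adjusted p = 0.064 and 0.21), although Acvr1b passed without replicate 1 with FGF2 (0.19, edgeR adjusted p = 0.026). Acvrl1 and Eng, receptors of endothelial cells, had at most 8 counts in a library. Of 6 endothelial markers 3 were tested, with Flt1 higher (fold change 6.55, edgeR adjusted p = 1.1e-08), Kdr lower (fold change 0.517, edgeR adjusted p = 0.048) and Pecam1 not passing, while Cldn5 was at 0 in all 4 libraries. The summed level of the 6 was 7.73 to 9.92 CPM with FGF2 and 4.95 to 8.50 CPM without.

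Smad7 (ENSMUSG00000025880) encodes the inhibitory SMAD that TGF-beta itself induces, and it did not pass the test. It had 147 and 147 counts in the FGF2 libraries against 169 and 117 in the others, or 16.2 and 14.9 CPM against 16.1 and 10.8 CPM. The groups overlapped, with replicate 1 without FGF2 at the level of those with FGF2. The fold change was 1.16, with an interval of 0.935 to 1.44 (log2 0.21, edgeR adjusted p = 0.30). Without replicate 1 of the cultures without FGF2 the log2 fold change was 0.52 and passed (edgeR adjusted p = 0.047), and without replicate 2 it was -0.052 (edgeR adjusted p = 0.88), so the direction changed with the library left out.

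The SMADs that carry the signal did not move alike. Smad3 rose from 26.5 ± 1.43 to 45.1 ± 4.51 CPM (SD, n = 2; fold change 1.70, edgeR adjusted p = 5.9e-12), and Smad4, the shared partner, rose from 99.5 ± 3.37 to 124 ± 1.48 CPM (SD, n = 2; fold change 1.25, edgeR adjusted p = 2.0e-06). Smad2 was at 81.5 ± 7.03 CPM with FGF2 and 88.5 ± 0.576 without (SD, n = 2; fold change 0.921, edgeR adjusted p = 0.18), and it passed as lower when replicate 2 with FGF2 was left out (log2 fold change -0.21, edgeR adjusted p = 0.035). Zfyve9, the adaptor SARA that brings SMAD2 and SMAD3 to the receptor, was lower by a small step (-0.17 on the log2 scale, edgeR adjusted p = 0.028), a call lost with DESeq2 (adjusted p = 0.20), without replicate 1 with FGF2 (-0.079) and without replicate 2 without FGF2 (-0.12).

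Among 10 other inhibitors and corepressors of SMADs, all tested, 3 were higher, 1 was lower and the median log2 fold change was 0.18. The share called was 40.0%, near the 40.5% of all tested genes. Tgif1, a corepressor of SMAD2 and SMAD3, had the largest difference, with 422 and 478 counts in the FGF2 libraries against 173 and 258 in the others (fold change 2.36, edgeR adjusted p = 2.0e-27). Skil, which encodes the corepressor SnoN and is also a TGF-beta target, rose 1.28-fold (edgeR adjusted p = 1.5e-05). The ubiquitin ligase genes Smurf2 and Nedd4l had small differences of 0.21 and -0.16 on the log2 scale (edgeR adjusted p = 0.0078 and 0.0018). Smurf2 no longer passed with DESeq2 (adjusted p = 0.086) or without replicate 2 of either group, at 0.18 in both edgeR fits, and Nedd4l no longer passed without replicate 1 of the cultures without FGF2, at -0.13. Pmepa1, a membrane protein that TGF-beta induces and that holds SMADs back, was at 26.2 ± 2.62 CPM with FGF2 and 24.5 ± 0.784 without (SD, n = 2; edgeR adjusted p = 0.55), and its log2 fold change of 0.10 was -0.0096 without replicate 2 with FGF2.

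**Figure D4:**
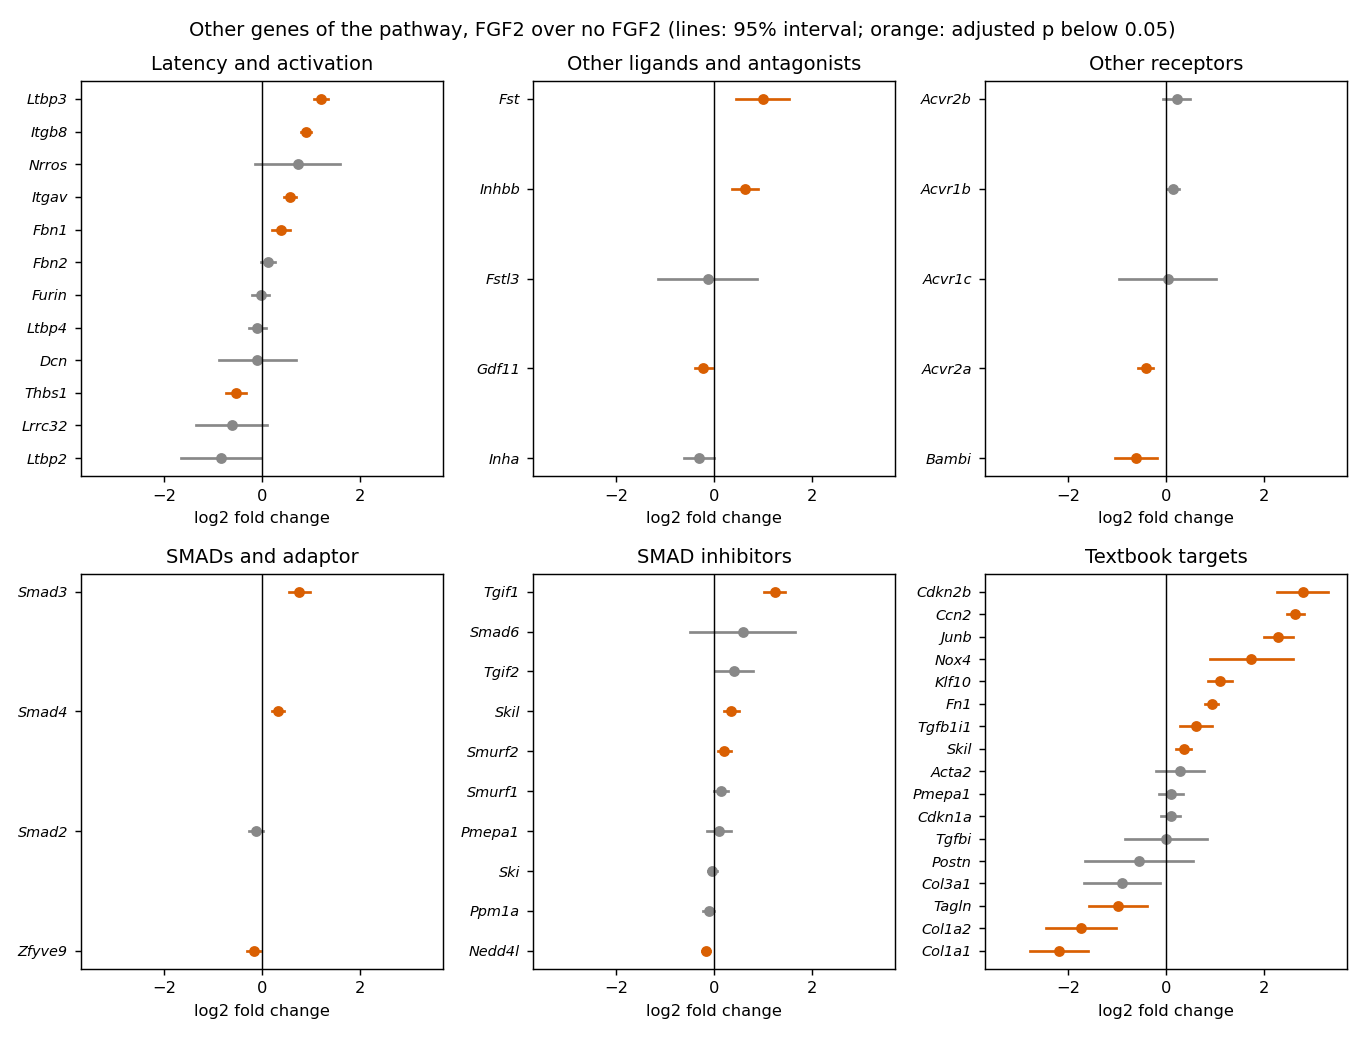
Log2 fold change, FGF2 over no FGF2 (horizontal axes), of the tested genes reported from 6 lists of pathway genes, with 95% intervals, in orange where the edgeR adjusted p-value is below 0.05. The target panel runs from Cdkn2b (2.78) and Ccn2 (2.64) down to Col1a1 (-2.18), and the other panels lie mostly within 1 log2 unit of 0.

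Textbook targets of TGF-beta went both ways. Of 19 genes reported 17 were tested, with 8 higher, 3 lower and 6 that did not pass. Among all tested genes 20.7% were higher and 19.9% lower. The median log2 fold change of the 17 targets was 0.29. These genes answer to other signals too, and their change is no measure of TGF-beta activity. Among those that rose were Ccn2, the matricellular connective tissue growth factor, with 1133 and 1115 counts in the FGF2 libraries against 205 and 202 in the others (fold change 6.24, edgeR adjusted p = 3.6e-189). Cdkn2b, which encodes the cell cycle inhibitor p15, had 127 and 112 counts against 19 and 20 (fold change 6.89, edgeR adjusted p = 1.1e-24). Junb, a subunit of AP-1, had 333 and 336 counts against 84 and 70 (fold change 4.90, edgeR adjusted p = 9.1e-53). For these 3 genes the replicates lay close together and the groups far apart.

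Klf10, the TGF-beta inducible early transcription factor, rose 2.15-fold and Fn1, the matrix protein fibronectin, rose 1.91-fold (edgeR adjusted p = 6.3e-18 and 1.3e-43). Nox4, an NADPH oxidase, had 29 and 43 counts against 14 and 10 (fold change 3.35, edgeR adjusted p = 0.00022), and Tgfb1i1, the focal adhesion protein Hic-5, rose 1.53-fold (edgeR adjusted p = 0.00084).

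In contrast, Col1a1 and Col1a2, the chains of type I collagen, fell with FGF2. Col1a1 had 14 and 20 counts in the FGF2 libraries against 92 and 83 in the others (fold change 0.220, edgeR adjusted p = 6.0e-12). Col1a2 had 19 and 9 counts against 44 and 62 (log2 fold change -1.73, edgeR adjusted p = 1.2e-05), and its log2 fold change was -2.43 without replicate 1 with FGF2. Tagln, the smooth muscle protein transgelin, had 29 and 25 counts against 68 and 53 (fold change 0.505, edgeR adjusted p = 0.0038), but it no longer passed with DESeq2 (adjusted p = 0.071), without replicate 2 with FGF2 (log2 fold change -0.83) or without replicate 1 without FGF2 (-0.78). Of the targets that did not pass, Col3a1 had a log2 difference of -0.90 (edgeR adjusted p = 0.054) and passed under total count scaling (edgeR adjusted p = 0.049) and with at least 10 counts in every library (edgeR adjusted p = 0.030), with Postn at -0.56, Acta2 at 0.29, Cdkn1a at 0.093 and Tgfbi at 0.0046, and Snai1 and Snai2 had at most 4 counts in a library. The list of fibroblast and mural markers shares Acta2, Col1a1, Col1a2 and Dcn with the pathway lists. Of its 6 tested genes 2 were lower, which are the collagens, and 2 were higher, which are Pdgfrb and Rgs5 of mural cells with log2 fold changes of 0.73 and 1.89. By comparison, 20.7% of all tested genes were higher and 19.9% lower. The summed level of this list was 63.0 to 66.9 CPM with FGF2 and 51.7 to 52.6 CPM without, Lum and Tbx18 had at most 15 counts in a library, and the part of these cells in the collagen values was not tested.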

How the data were processed

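Total RNA of the cultures was sequenced as 150-base paired ends on a NovaSeq. The authors used HISAT2 2.1.0 for mapping to mm10, kept well-mapped reads with Samtools and counted them per gene with HTSeq 0.11.2. The deposited values are raw counts per Ensembl gene, and the annotation release and the strand setting are not given in the sources used here. Of the 55421 genes, 55240 were matched by identifier to GENCODE release M21 for symbols and exonic lengths. Tallies of reads assigned to no gene (43.2% to 45.9%) and of ambiguous reads (1.47% to 1.76%) were left out of library sizes.

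Counts were filtered with filterByExpr, scaled by TMM (factors 0.992 to 1.01) and tested with the edgeR 4.0.16 quasi-likelihood test (robust, FGF2 against no FGF2), with Benjamini-Hochberg adjustment over 17144 genes and a threshold of 0.05. Shares of the ligands were compared by exact permutation over libraries. Levels between genes were compared as CPM per kb of union exonic length. The alternatives were RLE and total count scaling, no filter, at least 10 counts in every library, DESeq2 1.42.0, limma-voom 3.58.1, a replicate block and leaving out each library. The fit was tested on simulated data. A count of 3, taken as the floor, was 0.277 to 0.331 CPM and covers counting error only. The 2 libraries of a group differed by more than counting noise. All members were named, and of the pathway lists the called genes and those with a role beside a member. A microglial marker and a target gene are not reported here, and the counts of those 2 lists leave them out. Members and lists were chosen with earlier results of these data known.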

Additional observations from a re-analysis of the deposited data

How the results depend on the processing

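Of 547 values recomputed for 50 genes under the alternatives, 505 kept their direction and their side of the threshold, and no called gene changed direction. The number of genes differing with FGF2 was 6949 and became 4456 with DESeq2 (2313 higher and 2143 lower). Between 3 and 4 of the 9 members passed in the alternatives that kept all libraries, where Inhba was the call lost. The members that passed were not the same in every fit with a library left out, where Inhba, Ltbp1, Tgfb3 and Smad7 changed side. With a library left out the number of genes was 5213 to 6199, and the lone library of its group was then assumed to vary like the others. Values that changed direction were those of genes that did not pass: leaving out a library gave log2 fold changes of -0.48 to 0.0042 for Tgfb3, -0.052 to 0.52 for Smad7, -0.0096 to 0.19 for Pmepa1 and -0.057 to 0.060 for Tgfbi, which was -0.013 under total count scaling. The difference in the share of Tgfb2 ran from -8.54 to 3.18 percentage points, the latter without replicate 2 of the cultures without FGF2. The cause of these changes was not tested. Of the 52 tested pathway genes, which include the target gene not reported here, 28 passed (53.8%, against 40.5% of all tested genes). Under the alternatives 21 to 29 did, with the 21 under DESeq2, where fewer of all genes passed. These lists were chosen with earlier results of these data known.

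With the replicate number as a block, 6814 genes, 4 members and 28 pathway genes passed, and no call of a member changed. The differences between replicates 1 and 2 in the 2 groups had a correlation of 0.0077 across genes. This value cannot show whether the numbers pair the libraries, since counting noise also lowers such a correlation. Of the 9 members, Inhba, Ltbp1 and Tgfb1 had the fewest counts, at most 109 in a library.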
